A study of Sus scrofa with 15 samples.

Results

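The interval between 6 d and 2 d prepartum was examined in mammary gland tissue of pregnant sows, from which messenger RNA was sequenced. The comparison took the 3 libraries labelled 2 days and the 3 labelled 6 days before parturition, 6 of the 15 libraries of the series, and all genes of the count tables. The other libraries were taken at 14 d and 10 d prepartum and at 1 d postpartum. The same 3 second-parity crossbred sows gave a biopsy at each time point, so each time point held 1 library per sow and no untreated or non-pregnant group was included. The study took these sows for their high colostrum yield. Each sow received another diet from late gestation to weaning, and sow and diet therefore cannot be told apart. The diets paired alfalfa meal with trioctanoate, sugar beet pulp with palm fatty acid distillate, and alfalfa meal with soybean oil. Time on the diet also grew with the time points. The sow of each library was taken from the sequencing summary of the study, and values of sows 1, 2 and 3 are given below in that order. The question of the comparison was which genes changed in the interval where the study places the switch from colostrum formation to lactogenesis. The study compared each time point with 14 d prepartum, did not compare 2 d with 6 d directly, and calls the precise timing uncharacterized.

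Shortly before farrowing the epithelial cells of the mammary gland turn from a growing into a secreting tissue. Caseins, the main milk proteins, are made on the rough endoplasmic reticulum (ER), folded there by chaperones and disulphide isomerases, passed to the Golgi apparatus for glycan addition, and secreted. Milk fat leaves the cell as droplets coated with membrane that holds butyrophilin and xanthine dehydrogenase, and lactose is made in the Golgi by a galactosyltransferase with alpha-lactalbumin as its partner.

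Most of the genes listed for milk and for the ER were higher at 2 d than at 6 d prepartum, with a list median above 0 in each of the 3 sows, and genes of the interferon response, a set that cells switch on after sensing viral nucleic acid or interferon, were lower. The largest increase was in CYP1A1, a cytochrome P450 enzyme that oxidises aromatic compounds and hormones. How many genes were called depended on which libraries were fitted. With all 15 libraries and the sow as a block, edgeR called 4 of 13503 tested genes (0.0296%; p adjusted after Benjamini and Hochberg, threshold 0.05), 3 higher (0.0222%) and 1 lower (0.00741%), while 1586 genes had an unadjusted p under 0.05. With the 6 libraries of the interval alone and the sow as a block, it called 925 genes (6.85%), 539 higher (3.99%) and 386 lower (2.86%). With the 12 prepartum libraries, a fit chosen after the data were seen, it called 889 (6.58%), 575 higher (4.26%) and 314 lower (2.33%), of which 721 were among the 925. All 925 had the same sign of log2 fold change in the 15-library fit, and 686 of them had an unadjusted p under 0.05 there.

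The 1 d postpartum libraries stood apart from the rest. Around a model of sow and time, the median over genes of the root mean square residual was 0.215 on the log2 scale at 1 d postpartum, against 0.102 at 6 d, 0.116 at 2 d, 0.110 at 10 d and 0.131 at 14 d prepartum. The standard error of the 6 d to 2 d difference of CSN2, which encodes beta-casein, was 0.62 on the log2 scale with 15 libraries and 0.06 with 6. Its median over all tested genes was 0.18 and 0.12. The calls on 6 libraries also rested on the sow block: without it edgeR called 0 genes, with 1662 at an unadjusted p under 0.05, whereas limma-voom and DESeq2 with it called 985 and 698. Leaving out sow 1, 2 or 3 from the 6 libraries left 197, 770 and 1383 calls. The 6-library fit has few residual degrees of freedom and leans on the spread that edgeR shares across genes. Below, "rose" and "fell" are used of genes that passed with the 6 libraries and the sow block (6-library fit), and the adjusted p of the 15-library fit is given beside the genes the results turn on.

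**Figure D1:**
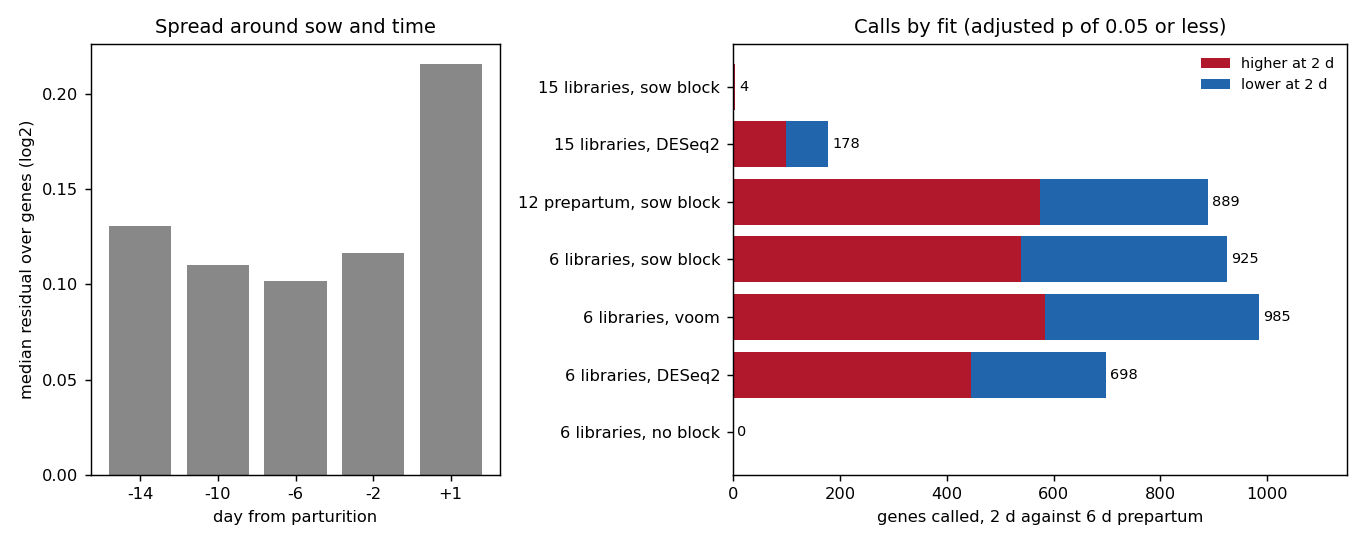
Left, median over 13503 genes of the root mean square residual (log2) around a model of sow and time, for each day from parturition; the bar at 1 d postpartum reaches 0.215 and the others lie between 0.102 and 0.131. Right, number of genes called in the 2 d against 6 d comparison by fit, with the total beside each bar; 4 genes were called with 15 libraries and 925 with the 6 libraries of the interval.

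Total counts were 17726719 to 18274050 per library at 6 d and 13459054 to 19952918 at 2 d prepartum. The 10 most abundant genes took 20.9% to 25.4% of the counts at 6 d and 25.1% to 35.7% at 2 d, and the TMM factors were 1.03 to 1.11 and 0.829 to 1.01. Values are therefore CPM, the count scaled to the TMM-adjusted library size. Without TMM the median log2 fold change of all genes was -0.23, against -0.01 with it, and the 6-library fit then called 312 genes higher and 2959 lower, so all directions below are relative to the median gene. The RNA integrity number listed by the study was higher at 2 d than at 6 d in each sow. With it as a covariate, edgeR called 0 genes on 15 libraries (1303 at an unadjusted p under 0.05) and 800 on the 12 prepartum libraries. These are bulk tissue samples, in which fewer cells of a type and less RNA per cell cannot be told apart.

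CYP1A1 had the largest increase of the genes called with 15 libraries. Its CPM was 0.379, 0.958 and 0.295 at 6 d and 12.5, 32.1 and 90.3 at 2 d prepartum. The groups did not overlap, which held for 9.54% of all tested genes with the 2 d values higher and for 8.56% with them lower, and sow 3 moved from the lowest of the 6 values to the highest. The log2 fold change was 6.21 ± 0.77 (SE; adjusted p = 0.0182), a 73.9-fold difference, resting on 6 to 18 reads per library at 6 d and 217 to 1224 at 2 d. At 14 d and 10 d prepartum the CPM lay between 0.372 and 0.916, and at 1 d postpartum it was 3.91, 5.75 and 1.53, below the 2 d value in every sow. The log2 fold change from 2 d prepartum to 1 d postpartum was -3.48. Its difference from the 6 d to 2 d step was -9.69 ± 1.12 (adjusted p = 0.00343), which includes the increase by which the gene was picked. CYP1A1 (ENSSSCG00000001906) lies at chr7:63491454-63497651 on the + strand of Sscrofa10.2. AHR, the receptor through which aromatic compounds switch on CYP1A1, fell from 153, 181 and 200 CPM to 81.3, 99.8 and 165.9 (log2 fold change -0.68 ± 0.12, adjusted p = 0.018 in the 6-library fit and 0.309 with 15 libraries). TIPARP and NQO1, which the same receptor can induce, passed in neither fit, with log2 fold changes of 0.24 ± 0.14 and -0.20 ± 0.12 (adjusted p = 0.339 and 0.351). AHR, TIPARP and NQO1 were chosen after their values were seen, and the cause of the CYP1A1 increase was not tested.

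ADORA1, the adenosine A1 receptor, and HCRTR1, an orexin receptor, were the other genes called higher with 15 libraries. ADORA1 stood at 13.9, 6.92 and 8.61 CPM at 6 d and at 51.7, 25.8 and 38.3 at 2 d. Every sow was higher and the groups did not overlap, with a log2 fold change of 1.98 ± 0.25 (adjusted p = 0.0182). HCRTR1 went from 1.51, 1.17 and 0.886 to 5.38, 4.90 and 3.54 CPM, again without overlap (1.96 ± 0.27, adjusted p = 0.0302). Both receptors stood higher still at 1 d postpartum, at 38.4 to 185 CPM for ADORA1 and 17.4 to 38.1 for HCRTR1. Before 6 d they were lower, at 0.963 to 5.54 and 0.339 to 0.856 CPM.

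FBXO39, which encodes an F-box protein of the kind that selects targets for ubiquitin ligases, was the gene called lower with 15 libraries. It stood at 8.39, 4.10 and 7.97 CPM at 6 d and at 3.06, 1.51 and 2.51 at 2 d. All 2 d values lay under all 6 d values, with a log2 fold change of -1.52 ± 0.19 (adjusted p = 0.0182). The 6 d value was the highest of the 5 time points in each sow. FBXO39 was also the one gene whose 6 d to 2 d step differed from the 10 d to 6 d step with 15 libraries (-2.48 ± 0.31, adjusted p = 0.0491). That difference includes the decrease by which the gene was picked. FBXO39 lies at chr12:52636412-52639252 on the - strand, and its neighbour on that strand, the unnamed gene ENSSSCG00000017887 at chr12:52643901-52658713, fell from 13.2, 10.9 and 24.1 to 3.35, 3.39 and 3.91 CPM (-2.11 ± 0.18, adjusted p = 0.00112 in the 6-library fit and 0.0641 with 15). Of these 4 genes only CYP1A1 passed when the 2 d library of sow 1 or of sow 3 was left out of the 15 (adjusted p = 0.00568 and 0.00704), and none of them passed without the 2 d library of sow 2 or the 6 d library of any sow.

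**Figure D2:**
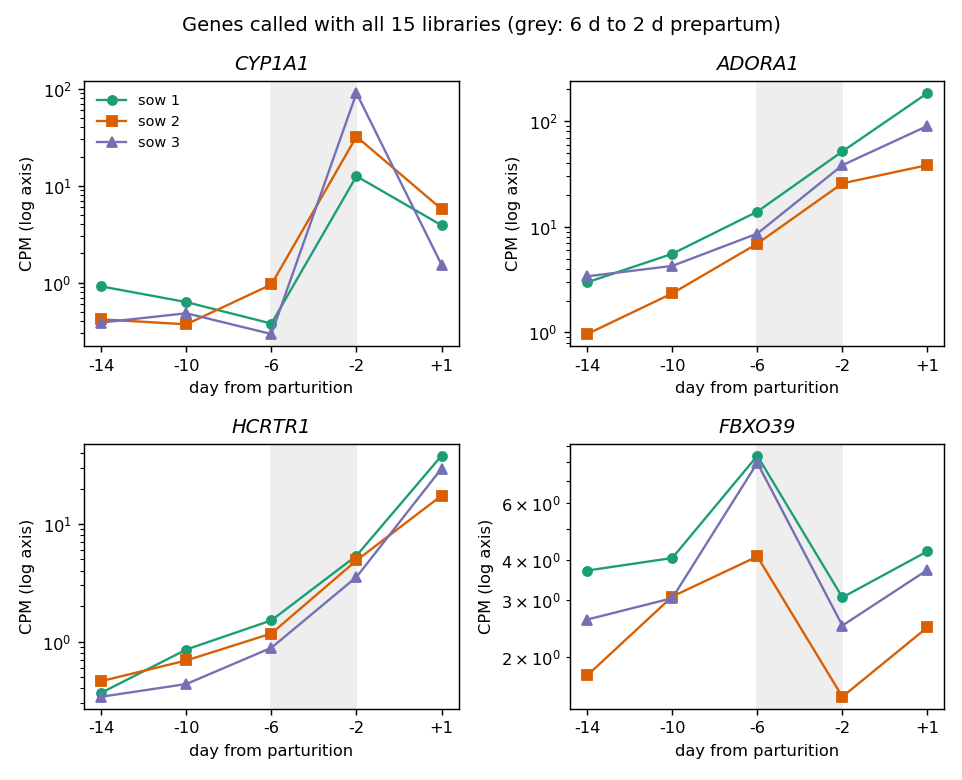
CPM (log axis) of the 4 genes called with all 15 libraries against day from parturition, 1 line per sow, with the 6 d to 2 d interval in grey. CYP1A1 reached 12.5 to 90.3 CPM at 2 d and was at 1.53 to 5.75 a day after parturition, ADORA1 and HCRTR1 climbed to 1 d postpartum, and FBXO39 was highest at 6 d.

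The caseins stood higher at 2 d in each sow. Beta-casein CSN2 counts made 20494, 30738 and 11004 CPM at 6 d and 68007, 97395 and 33100 at 2 d. The lowest 2 d value lay above the highest 6 d value. The 3 sows differed in level but little in their own ratio, which was 3.32, 3.17 and 3.01-fold (ratios within sows are on the scale of log CPM with a prior count of 2), and the log2 fold change was 1.66 ± 0.06 (adjusted p = 7.99e-06, against 0.334 with 15 libraries). CSN3, kappa-casein, outside the list and chosen after its values were seen, which keeps casein micelles in suspension, went from 4302, 6010 and 2300 to 13665, 21044 and 6409 CPM (1.65 ± 0.07, adjusted p = 4e-05, 0.158 with 15). CSN1S1, alpha-s1-casein, rose less, from 34260, 41031 and 27062 to 54172, 81254 and 46863 CPM (0.81 ± 0.07, adjusted p = 0.00122, 0.342 with 15). All 3 casein genes lie on chromosome 8. Between CSN2 (chr8:148228429-148236984) and CSN3 (chr8:148440837-148444886) lies the unnamed gene ENSSSCG00000009263 at chr8:148310617-148326957, with 3494, 3560 and 158 CPM at 6 d and 23135, 47273 and 2587 at 2 d. Its log2 fold change of 3.49 ± 0.23 (adjusted p = 0.000217, 0.158 with 15) was the largest increase among unnamed genes in the 6-library fit, and sow 3 had the lowest level at both times but the largest ratio, 16.3-fold against 6.62 and 13.3-fold.

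LALBA, alpha-lactalbumin, had the largest increase of the milk list after CYP1A1. Its CPM was 128, 161 and 7.83 at 6 d and 1378, 1890.5 and 90.9 at 2 d prepartum. The groups overlapped because sow 3 stood an order of magnitude below the others at both times, yet the ratios within the sows were 10.8, 11.8 and 11.5-fold. The log2 fold change was 3.5 ± 0.07 (adjusted p = 4.2e-07, 0.162 with 15 libraries). SLC35A2, the Golgi carrier that brings in UDP-galactose, a substrate of lactose synthesis, rose from 28.3, 29.6 and 23.5 to 46.7, 46.6 and 31.05 CPM (0.59 ± 0.09, adjusted p = 0.0104). HK2, a hexokinase that traps glucose in the cell, did not pass (0.89 ± 0.25, adjusted p = 0.0757). In these genes sow 3 had the lowest 2 d value.

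Of the fat droplet coat, BTN1A1, butyrophilin, stood at 24.99, 29.1 and 3.94 CPM at 6 d and at 124, 164 and 33.4 at 2 d. Each sow was higher and the groups did not overlap (2.55 ± 0.13, adjusted p = 6.36e-05, 0.158 with 15 libraries). XDH, xanthine dehydrogenase, its partner in the droplet coat, rose from 1814, 2999 and 987 to 6145, 9127 and 3337 CPM (1.70 ± 0.06, adjusted p = 1.08e-05, 0.162 with 15). ACSL6, which activates long-chain fatty acids with coenzyme A, rose by 2.25 ± 0.13 on the log2 scale (adjusted p = 9.11e-05). GPAT4, which adds the first fatty acid to glycerol phosphate, rose by 0.62 ± 0.09, and GK, glycerol kinase, by 0.80 ± 0.11 (adjusted p = 0.00753 and 0.00602). PLIN5, ACACB and DGKA did not pass, with log2 fold changes of -0.40 ± 0.62, -0.33 ± 0.21 and 0.11 ± 0.10.

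Among defence proteins of milk, LBP, which hands bacterial lipopolysaccharide to its receptor, stood at 48.0, 85.9 and 25.5 CPM at 6 d and at 202, 360 and 103 at 2 d. The ratio was 4.21, 4.19 and 4.03-fold (2.05 ± 0.07, adjusted p = 7.99e-06, 0.158 with 15 libraries). CP, the copper protein ceruloplasmin, rose from 1.03, 2.45 and 0.345 to 3.93, 21.4 and 2.21 CPM (adjusted p = 0.00152), and TLR2, a receptor of bacterial lipopeptides, rose by 1.01 ± 0.14 on the log2 scale (adjusted p = 0.00611). LTF, lactoferrin, had 1428, 1542 and 1710 CPM at 6 d and 1535, 2068 and 1879 at 2 d, and the ranges overlapped (0.22 ± 0.08, adjusted p = 0.14). CD14, LY96 and TLR4, which form the lipopolysaccharide receptor, also did not pass (-0.17 ± 0.14, -0.14 ± 0.17 and 0.14 ± 0.11). SPP1, osteopontin, was the one member of the milk list that fell (-0.51 ± 0.12, adjusted p = 0.0388).

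**Figure D3:**
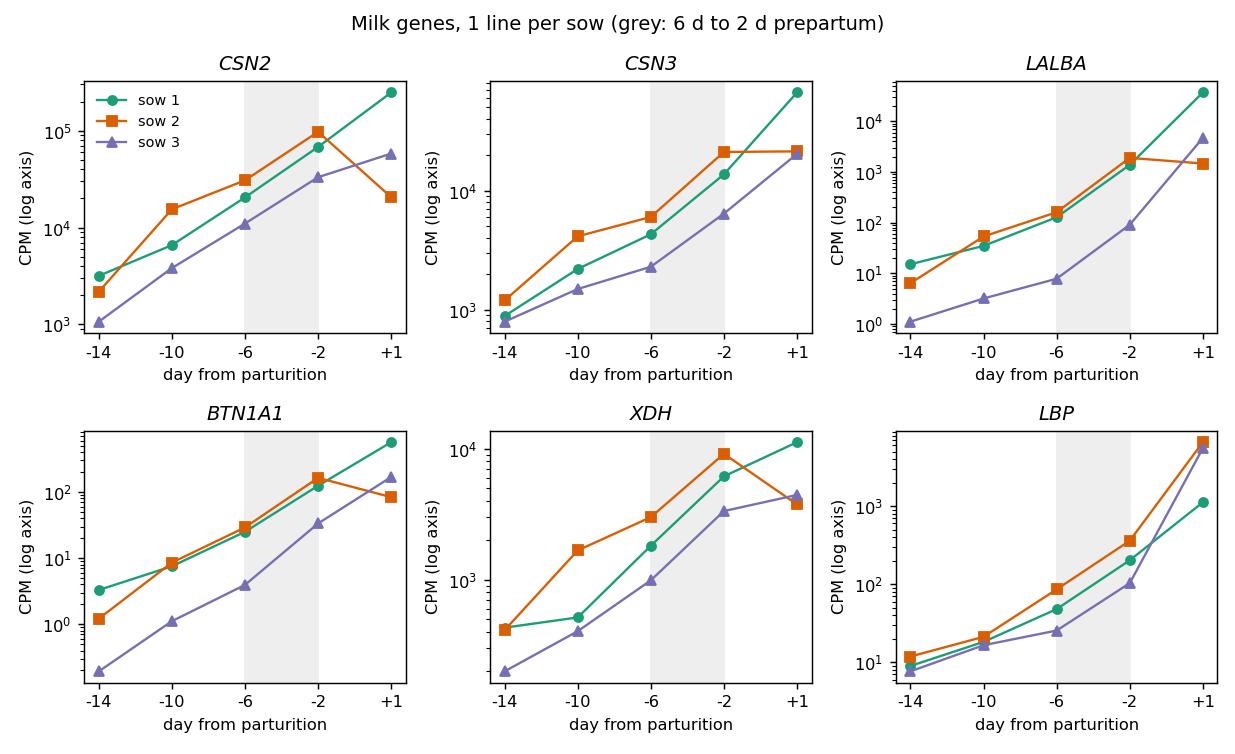
CPM (log axis) of 6 milk genes against day from parturition, 1 line per sow, with the 6 d to 2 d interval in grey. From 6 d to 2 d every line climbed, by about the same factor in the sows for CSN2, LALBA, XDH and LBP, while the sows parted at 1 d postpartum.

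The milk list was compiled from the text and tables of the study and holds, besides genes of milk protein, lactose and fat, defence, cytokine, receptor and transporter genes and CYP1A1, which the study does not call a milk gene. Of its 37 genes 29 were tested. With 15 libraries 1 of them, CYP1A1, was called, and in the 6-library fit 15 rose and 1 fell. Their median log2 fold change was 0.60 in the 15-library fit, against -0.01 for all tested genes, and 0.43 to 0.68 when 1 of the 6 libraries was left out. The study drew these genes from these samples, so the list is not independent evidence of a direction. Of its other members, SLC7A8, an amino acid exchanger, rose by 0.58 ± 0.09 and BDH2, a short-chain dehydrogenase, by 0.52 ± 0.11 (adjusted p = 0.00859 and 0.0332). The oxytocin receptor OXTR, the cytokine genes IL17RB, TNFSF13 and CXCL2, and the amino acid transporter gene SLC7A4 did not pass, with log2 fold changes between -0.24 and 0.36. The members CSN1S2, WAP, PAEP, B4GALT1, SAA2, HP, CD36 and CXCL10 matched no named gene and so were not tested under these names. This does not show that they were unexpressed, and their reads may stand under unnamed genes. The study lists CSN1S2 and HP among its largest increases from 14 d to 2 d prepartum. Milk list medians in the steps before and after were 0.22 (10 d against 14 d), 0.28 (6 d against 10 d) and 1.26 (1 d postpartum against 2 d).

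The secretory route held a larger share of genes that rose than the 3.99% of all tested genes. This list and those below were written with earlier results of these data known, so their shares are not independent evidence. Of 27 tested genes for entry into the ER, 14 rose and 0 fell in the 6-library fit. All 27 had a log2 fold change above 0 in the 15-library fit, with a median of 0.40, as did 6590 of all 13503 tested genes. Of 44 genes for ER folding and the unfolded protein response 22 rose and 0 fell (median 0.40), and of 39 genes for ER to Golgi and Golgi traffic 19 rose and 0 fell (median 0.38). None of them was called with 15 libraries. Medians of these 3 lists in the single sows were 0.39 to 0.48 in sow 1, 0.38 to 0.45 in sow 2 and 0.21 to 0.27 in sow 3. Without TMM they were 0.15 to 0.18, with the median of all genes at -0.23. When 1 of the 6 libraries was left out of the 15, the medians were 0.26 to 0.48 for ER entry, lowest without the 2 d library of sow 2, 0.34 to 0.46 for ER folding and 0.28 to 0.43 for Golgi traffic.

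SSR3, a subunit of the complex beside the ER channel, was at 170, 169 and 147 CPM at 6 d and at 257, 283 and 202 at 2 d, without overlap (0.59 ± 0.08, adjusted p = 0.00498). SPCS2, a signal peptidase subunit that trims the nascent chains, rose by 0.55 ± 0.07 (adjusted p = 0.00614). PDIA4, a disulphide isomerase, went from 299.7, 297 and 269 to 567, 560.0 and 419.5 CPM (0.82 ± 0.08, adjusted p = 0.00151, 0.158 with 15 libraries). DERL3, which helps to pull misfolded proteins out of the ER, and SDF2L1, a chaperone cofactor, rose by 1.07 ± 0.12 and 1.36 ± 0.16 (adjusted p = 0.00307 and 0.00381). HSPA5, the main ER chaperone, chosen after its values were seen, rose from 233, 261 and 240.0 to 515, 488 and 333 CPM (0.84 ± 0.12, adjusted p = 0.00681). KDELR3, a receptor that returns escaped chaperones to the ER, and SEC23B, a coat protein of vesicles that leave it, rose by 1.08 ± 0.18 and 0.66 ± 0.09 (adjusted p = 0.0137 and 0.00686).

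Lipid and glycan lists had lower medians than the ER lists. In the sterol list 8 of 21 genes rose and 0 fell (median 0.26), among them HSD17B7, a reductase of cholesterol synthesis, with 11.1, 17.1 and 10.1 CPM at 6 d and 27.2, 37.9 and 20.5 at 2 d (1.15 ± 0.10, adjusted p = 0.00109). Also in it were INSIG1, which holds back the transcription factor SREBP, and HMGCS1, an early enzyme of the route, with 0.95 ± 0.10 and 0.88 ± 0.11 (adjusted p = 0.00225 and 0.00498). In the fatty acid, glycerolipid and lipid droplet list 13 of 37 rose and 0 fell (median 0.25), and SCD, the desaturase that makes oleate, rose by 0.93 ± 0.07 (adjusted p = 0.000703). In the glycan list 10 of 37 rose and 1, PMM1, fell (median 0.24). PMM1 is a phosphomannomutase, with a log2 fold change of -0.68 ± 0.10 (adjusted p = 0.00955). Medians of these 3 lists without TMM were 0.02 to 0.04. The sterol median was 0.39 without the 2 d library of sow 3 and the lowest was 0.19.

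Other machineries are set against the 3.99% of all tested genes that rose and the 2.86% that fell. In the 6-library fit 0 of 52 cell cycle and DNA replication genes passed (median 0.02), as did 0 of 11 ribosomal protein genes, 0 of 22 translation factors and tRNA ligases and 0 of 20 spliceosome genes (0.05, 0.12 and 0.09). Of 29 ribosome assembly genes 2 rose (6.9%), of 22 nuclear genes of the respiratory chain 2 rose (9.09%), and of 17 genes on the mitochondrial genome 0 passed, with medians of 0.13, 0.20 and 0.11. Of 17 proteasome and chaperonin genes 2 rose (11.8%), of 20 sphingolipid genes 1 rose (5%) and of 33 solute carriers 4 rose (12.1%), with medians of 0.12, 0.03 and -0.01. Without TMM the medians of all these lists were below 0. The cell cycle list had medians of -0.33 in the step from 10 d to 6 d and -1 in the step from 2 d prepartum to 1 d postpartum.

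**Figure D4:**
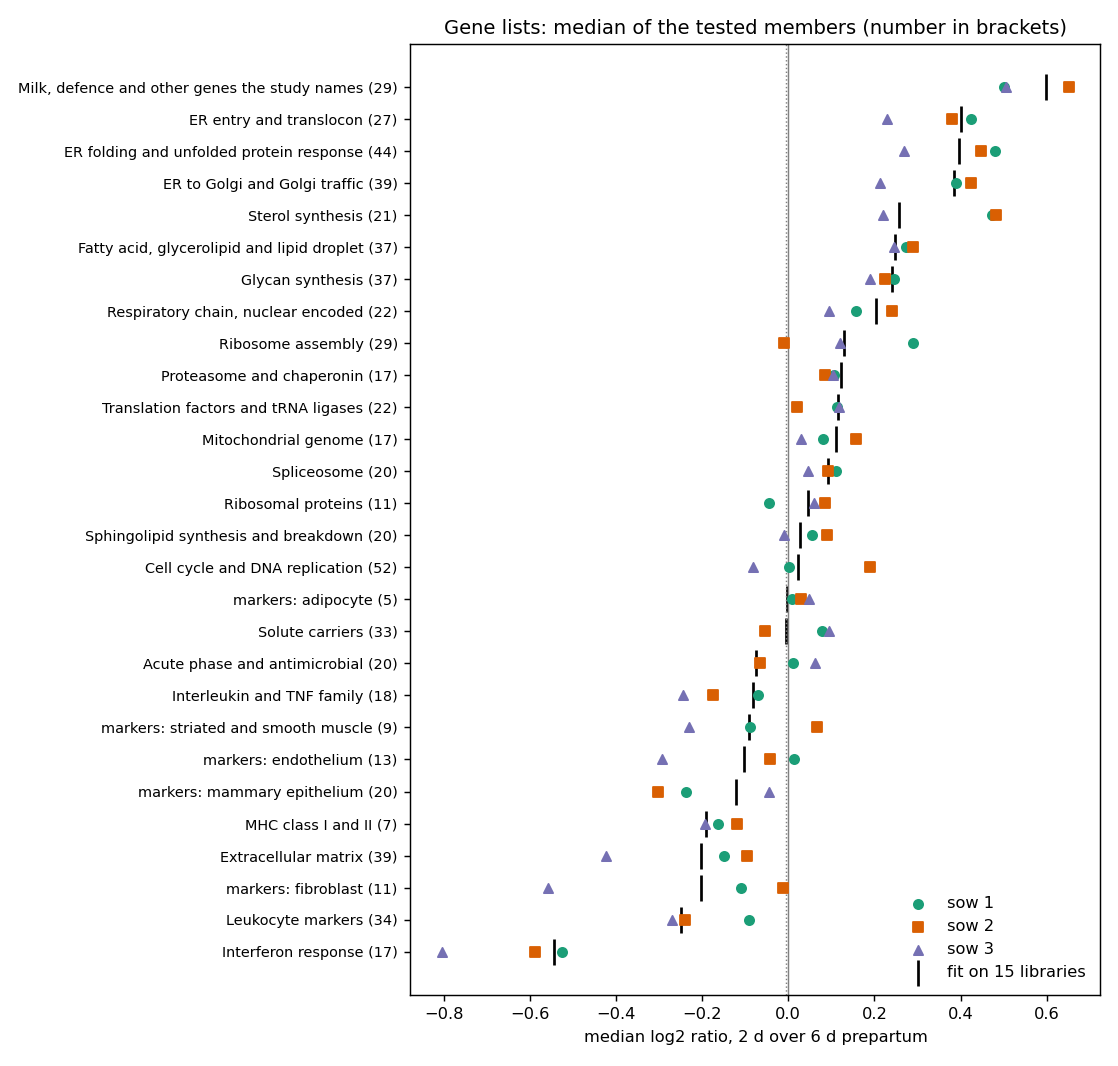
Median log2 ratio of 2 d over 6 d prepartum for each gene list (number of tested members in brackets), with 1 coloured symbol per sow and a black mark for the 15-library fit; the solid line is 0 and the dotted line the median of all genes. The milk, ER and Golgi lists lie to the right in all 3 sows, and the interferon list lies farthest to the left, at -0.52, -0.59 and -0.80.

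Most interferon response genes of the list fell. The list was written with earlier results of these data known, so it is not independent evidence of a direction. Of 17 tested list members 12 fell and 0 rose in the 6-library fit, with a background of 2.86% of all genes called lower, and 0 were called with 15 libraries. All 17 had a log2 fold change below 0, as did 6913 of all 13503 tested genes, and the median was -0.54. At 2 d 16 of 17 were lower in all 3 sows, as were 23.6% of all tested genes (23% were higher in all 3). ISG12(A), an interferon-induced membrane protein gene, was at 158, 76.4 and 129 CPM at 6 d and at 46.0, 26.3 and 20.9 at 2 d. The groups did not overlap (-1.97 ± 0.18, adjusted p = 0.00127, 0.248 with 15 libraries). IFIT1, which binds foreign RNA caps, fell from 20.0, 24.9 and 30.8 to 12.5, 12.3 and 9.14 CPM (-1.14 ± 0.18, adjusted p = 0.0117, 0.157 with 15). PARP14, an ADP-ribosyltransferase, and IFITM1, which hinders virus entry, fell by 1.09 and 0.92 on the log2 scale (adjusted p = 0.00503 and 0.00923). The members that did not pass were GBP2, CXCL9, TRIM14, TRAFD1 and TLR3.

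Further genes of the same kind were among the largest decreases of the 6-library fit. They are named by applying the rule for named genes to that fit, a step added after the values were seen. DDX60, a helicase of antiviral defence, was at 49.7, 35.3 and 51.0 CPM at 6 d and at 19.3, 8.10 and 11.7 at 2 d, without overlap (-1.85 ± 0.15, adjusted p = 0.000921, 0.158 with 15 libraries). DHX58, a regulator of viral RNA sensing, fell by 1.81, RSAD2, which makes a chain-terminating nucleotide, by 1.66, and ISG15, a ubiquitin-like modifier, by 1.55 on the log2 scale (adjusted p = 0.00127, 0.0153 and 0.0127). OAS2, which makes oligoadenylate to switch on RNA decay, went from 142, 68.1 and 243 to 65.04, 22.2 and 84.1 CPM. Its ranges overlapped across sows, but each sow fell (-1.42 ± 0.10, adjusted p = 0.0004).

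This group stood highest at 6 d among the prepartum time points. Against the same sow's 14 d library, the median of the interferon list was 0.13, 0.28 and -0.05 on the log2 scale at 10 d, 0.57, 0.78 and 0.66 at 6 d, and 0.00, 0.03 and -0.10 at 2 d prepartum. At 1 d postpartum it was 0.11, 0.77 and 1.00, so sow 1 stayed near its 14 d level and the other sows did not. Whether the 6 d to 2 d step differed from the 10 d to 6 d step was tested on the 12 prepartum libraries, where 62 genes differed (0.459%), 17 with a higher step (0.126%) and 45 with a lower one (0.333%). With all 15 libraries 1 gene, FBXO39, differed (0.00741%). All 45 went up from 10 d to 6 d and down from 6 d to 2 d in log2 fold change. The test that picked them favours this shape, so it is not a separate result. They held 8 of the 17 list members, and 26 of the 36 with a name are known as interferon-induced or interferon-signalling genes, counted after the 45 were seen.

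The smallest adjusted p of that difference belonged to DDX60 (-3.59 ± 0.29) and ISG12(A) (-4.38 ± 0.35), both at 0.000199. OAS2, USP18, which strips ISG15 from proteins, and MX1, a GTPase that blocks virus replication, differed by -2.61 ± 0.26, -2.56 ± 0.31 and -2.50 ± 0.39 (adjusted p = 0.00148, 0.00499 and 0.0154). The signalling genes IRF9 and IRF7 differed by -1.45 ± 0.23 and -1.25 ± 0.20 (adjusted p = 0.0154 and 0.0155), and the RNA sensor gene IFIH1 by -1.46 ± 0.24 (adjusted p = 0.0191). Among the 17 with a higher step were the secretory genes DERL3 (1.11 ± 0.21), SEC23B (0.88 ± 0.16), DNAJB11 (1.00 ± 0.19), which assists HSPA5, and OSTC (0.87 ± 0.17), a subunit of the enzyme that attaches glycans, and also HSD17B7 (1.40 ± 0.23), at adjusted p between 0.0217 and 0.0489. The casein genes CSN2, CSN3 and CSN1S1 did not pass this test (adjusted p between 0.164 and 0.751), nor did LALBA (1.87 ± 0.45, adjusted p = 0.0961).

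**Figure D5:**
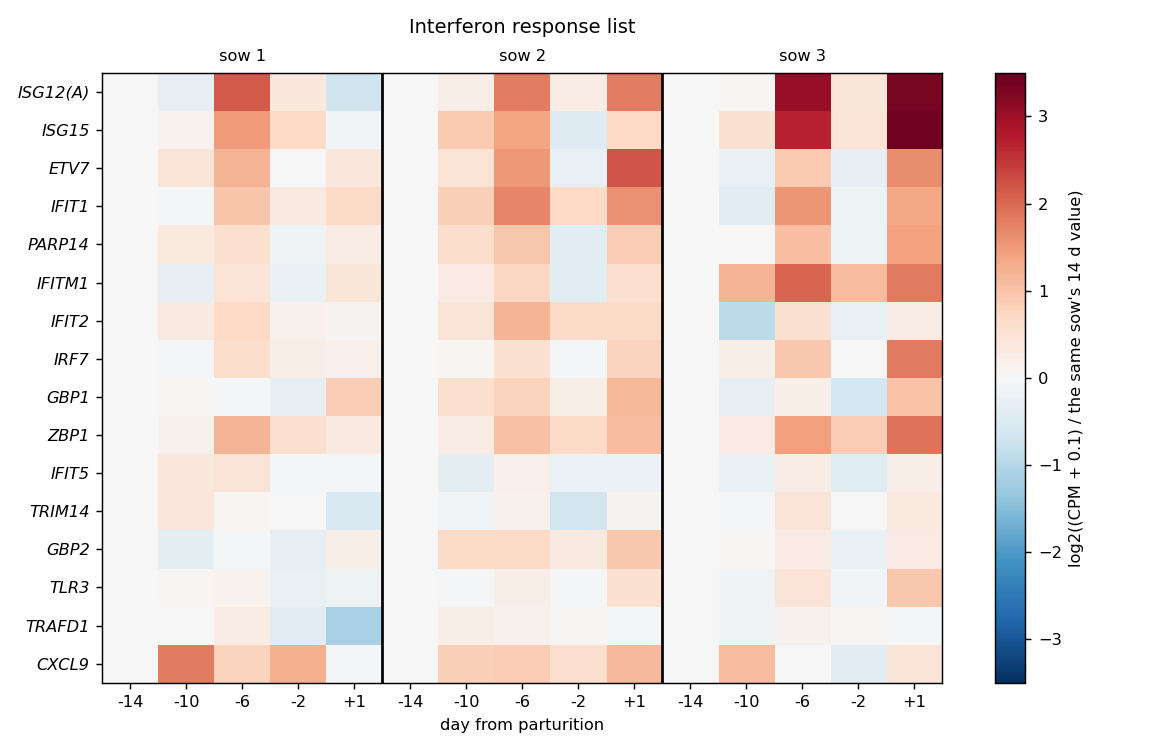
Colour gives log2((CPM + 0.1) / the same sow's 14 d value) for tested genes of the interferon response list, with days from parturition along the x axis and the sows side by side. In each sow the column at 6 d is redder than the columns at 10 d and 2 d for most genes, and at 1 d postpartum sows 2 and 3 are red again.

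Among other immune lists, 29 of 34 leukocyte markers and 7 of 7 MHC genes lay below 0 in the 15-library fit, with medians of -0.25 and -0.19. Of all 13503 tested genes 6913 lay below 0. Of the leukocyte markers 1, PIK3AP1, a signalling adaptor, fell (2.94%, against 2.86% of all genes; -0.42 ± 0.10, adjusted p = 0.0428) and 0 rose. PTPRC, the common leukocyte antigen CD45, did not pass, with 34.4, 37.5 and 38.1 CPM at 6 d and 31.4, 29.9 and 27.5 at 2 d (-0.31 ± 0.09, adjusted p = 0.0857). Of 7 MHC genes 1, the class I gene SLA-1, fell (14.3%; -0.42 ± 0.08, adjusted p = 0.0207). In the interleukin and TNF family list 0 of 18 passed (median -0.08). The acute phase and antimicrobial list had 3 of 20 members that rose (15%, against 3.99% of all genes), LBP, CP and TLR2, and 1 that fell (5%), LYZ, lysozyme, from 25.3, 22.2 and 23.8 to 14.2, 11.2 and 9.66 CPM (-1.04 ± 0.12, adjusted p = 0.00292).

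Matrix genes were mostly lower, with 32 of 39 below 0 in the 15-library fit, against 6913 of all 13503 tested genes. In the 6-library fit 4 fell (10.3%, against 2.86% of all genes) and 1, the clotting factor gene F13A1, rose (2.56%; 0.87 ± 0.19, adjusted p = 0.0343), and the median was -0.20 with -0.15, -0.10 and -0.42 in the sows. COL9A1, a collagen IX chain, fell from 19.2, 99.9 and 11.2 to 6.24, 38.6 and 6.78 CPM (-1.28 ± 0.15, adjusted p = 0.0037, 0.0916 with 15 libraries). THBS2, a matrix glycoprotein, fell by 0.96 and LOXL1, which cross-links elastin, by 0.59 on the log2 scale (adjusted p = 0.00282 and 0.0263). APCDD1L, a gene of the 6-library decreases outside the lists, went from 8.22, 7.24 and 29.5 to 2.43, 0.847 and 10.4 CPM (-1.89 ± 0.24, adjusted p = 0.00497).

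The labelled tissue was checked against cell markers. Of 21 markers of mammary epithelium 20 were found, none of them at 0, and their summed level was 3436 to 4009 CPM at 6 d and 3508 to 4092 at 2 d prepartum. In the 15-library fit 16 of the 20 lay below 0, against 6913 of all 13503 tested genes. The median was -0.12, with -0.24, -0.30 and -0.05 in the sows. In the 6-library fit 5 of them fell (25%, against 2.86% of all genes) and 2 rose (10%, against 3.99%). KRT8 and KRT18, keratins of the luminal layer, were among those that fell, KRT8 from 240.0, 300.4 and 288 to 168, 196 and 219 CPM and KRT18 by 0.60 on the log2 scale (adjusted p = 0.00664 and 0.0141). The others were the desmosome gene DSP, TFAP2C and S100A14. EPCAM, an epithelial adhesion molecule gene, and ELF5, which drives the secretory epithelial fate, rose by 0.47 ± 0.08 and 0.33 ± 0.06 (adjusted p = 0.0164 and 0.0205). Their part in the other results was not tested. The summed markers were 709 to 821 and 690 to 753 CPM for endothelium (13 genes, 0 called), 3886 to 6457 and 3852 to 4415 for fibroblasts (11 genes, 1 lower), 1886 to 2220 and 1729 to 1918 for muscle (9 genes, 0 called), and 44.6 to 57.3 and 48.7 to 54.4 for adipocytes. Of the 8 listed adipocyte genes 5 were found and tested. PLIN1, a droplet coat gene, fell on 8 to 30 reads per library at 6 d and 2 to 9 at 2 d. CIDEA, which enlarges droplets, rose, and the other members found did not pass. ADIPOQ, LEP and FABP4 were not among the 5 and were not analysed here.

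The 6 d libraries also differed in genes of the epidermis. KRT1, a keratin of the outer skin layers, had 0.216, 4.15 and 49.5 CPM at 6 d and 0.173, 0.181 and 0.0737 at 2 d, and KRT10, its partner, had 1.41, 6.71 and 35.2 and then 2.08, 4.66 and 1.47. The sum of 7 epidermal genes chosen after the data were seen was 90.7 CPM in the 6 d library of sow 3 and 1.92 to 14.0 in the other 5 libraries. KRT1 had the largest decrease of a named gene in the 6-library fit (-6.52 ± 0.72, adjusted p = 0.00282) and did not pass with 15 libraries (adjusted p = 0.501). The unnamed gene ENSSSCG00000002883 (chr6:40230657-40243498) had its highest values in the same libraries as KRT1, 16.5 CPM at 14 d in sow 2, 4.86 at 10 d in sow 1 and 4.63 at 6 d in sow 3, and fell from 0.271, 0.639 and 4.63 to 0.0578, 0.0605 and 0.221 CPM (-3.83 ± 0.48, adjusted p = 0.00498, 0.515 with 15 libraries). The median of the interferon list was -0.52, -0.59 and -0.80 in the 3 sows, lowest in sow 3. It was -0.57 in the 15-library fit without the 6 d library of sow 3. Whether the interferon values depend on the epidermal content of a biopsy was not tested.

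Regulators of mammary differentiation, chosen after their values were seen, did not pass with 15 libraries. XBP1, a transcription factor of the unfolded protein response, was at 587, 1073 and 622 CPM at 6 d and at 1029, 1525 and 845 at 2 d (0.58 ± 0.08, adjusted p = 0.00697, 0.349 with 15 libraries). The receptor genes PGR, ESR1 and PRLR and the signal transducer gene STAT5A, which act for progesterone, oestrogen and prolactin, had log2 fold changes of 0.05 ± 0.27, 0.05 ± 0.15, 0.01 ± 0.16 and -0.06 ± 0.06 and did not pass.

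Of the other increases named by the rule in the 6-library fit, DNAJC6, which uncoats clathrin vesicles, went from 7.68, 6.76 and 2.71 to 39.5, 25.2 and 9.59 CPM (2.06 ± 0.14, adjusted p = 0.000242, 0.0641 with 15 libraries). WNT2B, a Wnt ligand, went from 1.19, 1.28 and 0.345 to 4.97, 6.05 and 1.84 CPM (2.19 ± 0.22, adjusted p = 0.00191). LPO, lactoperoxidase, an antibacterial enzyme of milk, went from 1.41, 1.01 and 0.345 to 10.23, 6.83 and 0.516 CPM, with the smallest difference in sow 3 (2.56 ± 0.31, adjusted p = 0.00439, 0.21 with 15). CFAP161, a cilium gene, went from 1.24, 0.958 and 0.443 to 6.47, 10.22 and 1.40 CPM (2.68 ± 0.30, adjusted p = 0.00292), and KRT39, a hair keratin gene, from 0.595, 5.16 and 1.28 to 6.07, 24.7 and 2.80 CPM (2.22 ± 0.29, adjusted p = 0.00546). PDE6H, a phosphodiesterase subunit gene, passed (adjusted p = 0.0391) on 4, 0 and 0 reads at 6 d and 21, 9 and 2 at 2 d, too few to set a fold. The unnamed gene ENSSSCG00000016731 on chromosome 18 rose from 28.7, 14.9 and 1.33 to 173, 186 and 12.02 CPM (3.1 ± 0.20, adjusted p = 0.000201). In the 6-library fit 115 genes rose by 1 or more on the log2 scale and 49 fell by 1 or more.

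The steps on either side were set beside this one with the same models, which share the libraries of 1 time point between neighbouring steps. With 15 libraries edgeR called 0 genes in the step from 14 d to 10 d (0%, with 523 at an unadjusted p under 0.05 and 25 called by DESeq2), 1 gene, PLEKHD1, in the step from 10 d to 6 d (0.00741%), and 3152 in the step from 2 d prepartum to 1 d postpartum (23.3%). On the 6 libraries of each step the counts were 17 (0.126%), 921 (6.82%) and 411 (3.04%), against 925 here. By pairs of time points alone, the 10 d to 6 d and the 6 d to 2 d steps thus held similar counts, and on the 12 prepartum libraries it held 203 (1.5%) against 889. The step to 1 d postpartum differed from the 6 d to 2 d step in 397 genes with 15 libraries (2.94%), 210 with a higher (1.56%) and 187 with a lower step (1.38%), among them 4 members of the interferon list, all with a higher step.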

How the data were processed

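Members and gene lists were chosen with earlier results of these data known. The authors checked single-end reads of stranded mRNA libraries with FastQC and aligned them with STAR (2.5.1b, per the submitters' processing notes); the deposited files hold raw counts per gene made by featureCounts 1.5.0 on the reverse strand, with the Ensembl 86 annotation of Sscrofa10.2 per the file headers, while the study's methods name RefSeq. No replicate was pooled. Reads of near-identical genes could be split or dropped by that counting.

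Tests were run with edgeR 4.0.16 under R 4.3.3 (TMM, glmQLFit, glmQLFTest), with DESeq2 1.42.0 and limma 3.58.1 as alternatives. Tested were 13503 of 25322 genes, those reaching a CPM of 1 in 3 or more libraries, in a model of time and sow over all 15 libraries. The standard error is the absolute log2 fold change divided by the square root of F. The same-sow pairing comes from the study's sequencing summary, joined by total count. Deviations from the time point means correlated between libraries of 1 sow (0.103 to 0.627 over 30 pairs, 0.534, 0.627 and 0.572 between 6 d and 2 d). Their mean of -0.198 between sows follows from taking deviations from the mean of the same 3 sows and adds no separate contrast. The 3 libraries of a time point come from 3 animals. All 105 library pairs differed in count in at least 16072 genes.

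Symbols came from a reference table and the study's gene list (12059 genes). The rule for genes named in the text took, from called genes that moved alike in all sows, 14 increases and 10 decreases of greatest size, up to 4 called members per list (else up to 2 of smallest p), the milk list, and up to 2 unnamed genes each way. After the values were seen it was also applied to the fit on the 6 libraries, and further genes are marked as chosen then. The fitting scripts were tested on simulated counts. Alternatives covered normalisation, filters, tools, sow term, libraries and RNA integrity. Total counts are given in the report, and the intervals implied by them cover counting error only. No sequence is shown, and an item of the gene lists is counted but not reported by name here.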

Additional observations from a re-analysis of the deposited data

Results flagged for a closer look

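The 6 d to 2 d step of several genes was set against a neighbouring step and differed in the 15-library edgeR fit. Each difference includes the 6 d to 2 d step itself, by which CYP1A1 and FBXO39 were picked. CYP1A1 rose by 6.21 and then had a log2 fold change of -3.48 to 1 d postpartum (difference -9.69 ± 1.12, adjusted p = 0.00343). FBXO39 was 0.96 from 10 d to 6 d, -1.52 from 6 d to 2 d and 0.58 afterwards, and differed from the step before by -2.48 (adjusted p = 0.0491) and from the step after by 2.10 (adjusted p = 0.0204). The interferon genes PARP14 and IFIT1 turned likewise (difference to the step after 2.21, adjusted p = 0.0264, and 2.09, adjusted p = 0.0322).

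For the other genes the log2 fold change from 2 d prepartum to 1 d postpartum minus that from 6 d to 2 d is given. It was above 0 for CD14 (5.51, adjusted p = 0.0374), SPP1 (5.36, adjusted p = 0.00194), PLIN5 (5.03, adjusted p = 0.0274), CXCL2 (3.88, adjusted p = 0.00274) and IL15 (1.56, adjusted p = 0.0232), genes of bacterial sensing, matrix, lipid droplets and cytokines. It was below 0 for COL9A1 (-1.93, adjusted p = 0.0389), ORMDL1 (-1.18, adjusted p = 0.0156), which restrains sphingolipid synthesis, and RPL27 (-0.85, adjusted p = 0.0211), a ribosomal protein gene. These tests use the 1 d postpartum libraries, whose spread was the widest.

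Most of these calls were lost when a library was left out. With each of the 6 libraries of 6 d and 2 d left out in turn, CYP1A1, SPP1 and CXCL2 passed in 6 of 6 fits, ORMDL1 in 3, IL15 in 2 and FBXO39 against the step after in 1. FBXO39 against the step before, RPL27, COL9A1, PARP14, IFIT1, CD14 and PLIN5 passed in 0 of 6, with adjusted p from 0.0501 (PLIN5) to 0.862 (FBXO39).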

How the results depend on the processing

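With 15 libraries the count of 4 in the 6 d to 2 d step moved with most settings: 1 with no replicate block of sow, 0 by limma-voom when sow entered as a correlated block (1566 at an unadjusted p under 0.05), 178 by DESeq2, 10 with no filter on low counts, 0 with RNA integrity as covariate, and 1 and 0 without all libraries of sow 1 and sow 3. Leaving out 1 library gave 0 to 2; here and below only the 6 libraries of 6 d and 2 d were left out in turn. The 6 libraries with the replicate block of sow gave 925. The following were chosen after the data were seen: 889 on the 12 prepartum libraries, then 293, 286 and 319 there without the 6 d library of sow 1, 2 or 3, 239, 286 and 1178 without the 2 d library, and 800 with RNA integrity. On the 6 libraries they were 0 with no replicate block, 3271 without TMM, 985 by limma-voom, 698 by DESeq2, and 197, 770 and 1383 without sow 1, 2 and 3.

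In the step from 14 d to 10 d the count of 0 became 25 by DESeq2, 13 on the 12 prepartum libraries and 17 on its own 6, and was 0 to 1 without 1 of the 6 d and 2 d libraries, none of which belongs to that step. From 10 d to 6 d the count of 1 became 0 with no replicate block, 0 by limma-voom, 0 without TMM, 87 by DESeq2, 203 on the 12 prepartum libraries and 921 on its own 6, and was 0 to 2 without 1 library. From 2 d prepartum to 1 d postpartum the 3152 became 411 on its own 6 libraries and 1831 to 2804 without 1 library (lowest without the 2 d library of sow 3). Of genes whose step differed from the step before, 1 became 0 with no replicate block, by limma-voom and without TMM, 32 by DESeq2, 62 on the 12 prepartum libraries, and 0 without each of the 6 libraries of 6 d and 2 d. Against the step after, 397 became 165 with no replicate block, 1057 by DESeq2, 116 without TMM and 9 to 74 without 1 of those 6 (9 without the 2 d library of sow 3, 19 without that of sow 1).

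CYP1A1, ADORA1, HCRTR1 and FBXO39 kept their direction under all alternatives that tested them; log2 fold changes were 4.84 to 7.04, 1.75 to 2.19, 1.73 to 2.06 and -1.74 to -1.39, with adjusted p up to 0.319, 0.509, 0.393 and 0.400. CYP1A1 and HCRTR1 were not tested when a CPM of at least 1 was required in all libraries. Causes of these shifts were not tested, and the residual spread given above is a description only. Genes near 1 CPM rest on about 10 to 20 reads per library, which limits small differences.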
